A study of Mus musculus with 12 samples.

Results

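The arrays compared retinas of mice whose right eyes had received gold particles with retinas of mice that had received silicate particles, with both sizes of each material pooled. All 12 arrays of the series entered the comparison, 6 with gold and 6 with silicate. Male C57BL/6 mice aged 5 weeks were injected into the vitreous with PBS, with gold of 20 or 100 nm diameter, or with silicate of 20 or 100 nm diameter, and retinas were collected at 7 days. Each group had 12 mice, and 4 retinas were pooled per tube, so a tube is a mean over 4 animals. Every array carried the RNA of a particle tube in Cy5 and that of a PBS tube in Cy3, and a slide held 1 array of each of the 4 particle groups. The replicate number is the slide number. The annotation writes the sizes as nM, and the strain entry of the PBS channel runs beyond C57BL/6 on the silicate arrays, so both entries were read through the injection protocol. On each slide the mean log2 ratio (particle over PBS) of the 2 silicate arrays was subtracted from that of the 2 gold arrays, and the 3 slide differences were averaged. A negative difference means that the gold tubes were lower. Any constant dye effect of a probe cancels in this difference. It does not cancel in a ratio against PBS, because PBS was always in Cy3. A ratio said below to be above, near or below PBS may therefore hold a dye effect, which was not tested. A group kept 1 place on all slides, and the effect of place and of group cannot be told apart.

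The retina holds rod and cone photoreceptors, the bipolar, amacrine, horizontal and ganglion neurons, Muller glia and resident microglia. Injury to it draws in blood-borne phagocytes and neutrophils and turns on interferon, complement and gliosis genes, while photoreceptor transcripts can fall as a share of all RNA. The lens lies against the vitreous through which the particles are injected, and its fibre cells are packed with crystallins, which are among the most abundant transcripts of the eye. In these retinas the rod genes Pdc (phosducin) and Gnat1 (rod transducin) were bright on all 12 arrays, and probes of lens, pigment epithelium, muscle and surface epithelium genes also gave signal, at levels that differed between tubes. In pooled tissue, fewer cells of a type and less RNA per cell cannot be told apart.

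No gene passed the comparison of gold with silicate over the 3 slides. With limma's moderated test on the slide differences and Benjamini-Hochberg adjustment, 0 of 23237 genes were called, which is 0% in either direction, and the smallest adjusted p was 0.674. At an unadjusted p under 0.05, gold was higher for 515 genes (2.22%) and lower for 678 (2.92%), 1193 in all or 5.13%. The sign was the same on all 3 slides for 3729 genes higher in gold, 16% of those with 3 slide differences, and for 4447 genes lower in gold, 19.1%. All 6 gold arrays lay above all 6 silicate arrays for 70 genes and below them for 70 genes, 0.302% each. The genes named below from this comparison are therefore given by their values, and none of them is called changed over the slides.

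Gamma crystallins, the structural proteins of the lens fibre core, were lower with gold on every slide, and Cryge and Crygf had the largest mean differences of all genes tested. This group was set apart from the lens list after its values were seen. The 6 genes Cryga to Crygf lie on chromosome 1 and are close copies of each other, and their probes may share signal, which was not tested. The stretch of 100 bases before each annotated start is shown for all 6 because the genes had the same sign on every slide. Sequences and coordinates are those of RefSeq on GRCm38.p6, written 5′ to 3′ on the strand of the gene. Capitals mark the letters TATATA, and CTTTTGTG further upstream, on the strand shown. The counts of stretches given below were taken on both strands.
Cryga, chr1:65103364-65103463, minus strand: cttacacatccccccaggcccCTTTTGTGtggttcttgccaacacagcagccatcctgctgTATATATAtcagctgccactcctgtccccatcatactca
Crygb, chr1:65082291-65082390, minus strand: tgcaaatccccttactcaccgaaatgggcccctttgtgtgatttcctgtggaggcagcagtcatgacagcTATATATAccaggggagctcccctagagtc
Crygc, chr1:65073533-65073632, minus strand: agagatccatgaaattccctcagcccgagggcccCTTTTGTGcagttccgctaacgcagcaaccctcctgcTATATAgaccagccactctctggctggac
Crygd, chr1:65063441-65063540, minus strand: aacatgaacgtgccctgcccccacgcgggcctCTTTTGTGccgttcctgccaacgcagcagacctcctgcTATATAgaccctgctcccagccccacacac
Cryge, chr1:65051164-65051263, minus strand: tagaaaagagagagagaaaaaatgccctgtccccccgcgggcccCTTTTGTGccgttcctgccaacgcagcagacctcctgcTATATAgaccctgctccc
Crygf, chr1:65926422-65926521, plus strand: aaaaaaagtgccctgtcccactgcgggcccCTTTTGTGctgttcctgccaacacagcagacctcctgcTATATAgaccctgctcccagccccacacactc
TATATA occurred in all 6 stretches and in 2.19% of the 32851 promoter stretches of the same length and position, and CTTTTGTG in 5 of the 6 and in 0.46% of all. Only 7 stretches of the 32851 held both, and 5 of them were these gamma crystallins. No source outside these stretches is given for the letters, so the counts in the 6 are a description and not a test. Pairs of the 6 stretches had 63 to 91 of 100 bases identical, so the 6 are not independent occurrences. A link of these letters to the differences between the materials was not tested. Crygb lacked the second run of letters. The 2 runs of letters do not overlap. The most alike pair of stretches was Crygd and Crygf, with 91 of 100 bases identical, and Cryge and Crygf shared 81. The annotated start shifts the stretches: TATATA lay at -18 in Cryge, against -30 in Crygd and -32 in Crygf. The identity counts thus depend on the start as well as on the sequence.

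Cryge had log2 ratios of -3.79, -3.20 and -2.42 (lowest, median, highest) on the 6 gold arrays and of -0.42, 1.29 and 3.37 on the 6 silicate arrays. The arrays did not overlap: every gold tube was below PBS and below every silicate tube. The differences were -2.83, -5.02 and -5.73 on slides 1, 2 and 3, a mean of -4.52 ± 1.51 (SD, n = 3), or 23.0-fold lower with gold. Crygf ran from -3.82 through -3.15 to -2.43 with gold and from -0.70 through 1.26 to 3.54 with silicate. Its differences were -2.89, -5.04 and -5.58, a mean of -4.50 ± 1.42 (SD, n = 3). Both genes had their smallest gap on slide 1, and neither passed over the slides (limma, adjusted p of 0.674 for each).
Within slide 2, Cryge (adjusted p = 0.0112) and Crygf (adjusted p = 0.00503) were called lower with gold, and within slide 3 as well (adjusted p of 1.71e-05 and 7.59e-06). With the slide as a random block, the 12-array limma fit called both (adjusted p = 0.0178). With the slide as a fixed block, or with no block, the fit to the 12 arrays called 0 genes.

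For Cryge and Crygf the PBS RNA lay between the materials on slides 2 and 3. For Cryge the PBS level (normalized log2 intensity in Cy3) was 11.18 to 11.31 on slide 1, 12.80 to 12.82 on slide 2 and 11.00 to 11.14 on slide 3. The Cy5 level of the gold tubes was 7.89 and 8.88 on slide 1, 9.01 and 9.16 on slide 2, and 8.28 and 8.02 on slide 3. The silicate tubes were at 11.41 and 10.82 on slide 1, 14.53 and 13.69 on slide 2, and 13.34 and 14.51 on slide 3. Thus on slide 1 the silicate tubes were near PBS and only the gold tubes stood away from it.

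The other 4 of the genes Cryga to Crygf were lower with gold on every slide too, by less. Crygc differed by -1.07, -3.42 and -3.79 on the 3 slides, Cryga by -1.01, -3.20 and -3.47. Crygd differed by -0.86, -2.84 and -3.13, and Crygb by -0.66, -2.66 and -2.88. The gold 100 nm tube of slide 1 stood apart, near PBS, at -0.17 for Crygc, -0.28 for Cryga, -0.11 for Crygd and 0.000515 for Crygb. For Crygd it still lay below the lowest silicate array (-0.09), so all 6 gold arrays were below all 6 silicate arrays, whereas Cryga, Crygb and Crygc overlapped.
The same sign on all slides was seen for 6 of the 6 genes Cryga to Crygf, beside 19.1% of all genes. Their median difference was -2.66, beside -0.02 over all genes. The group was set apart after its values were seen and its members are close copies, so these values are a description and not a test.

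**Figure D1:**
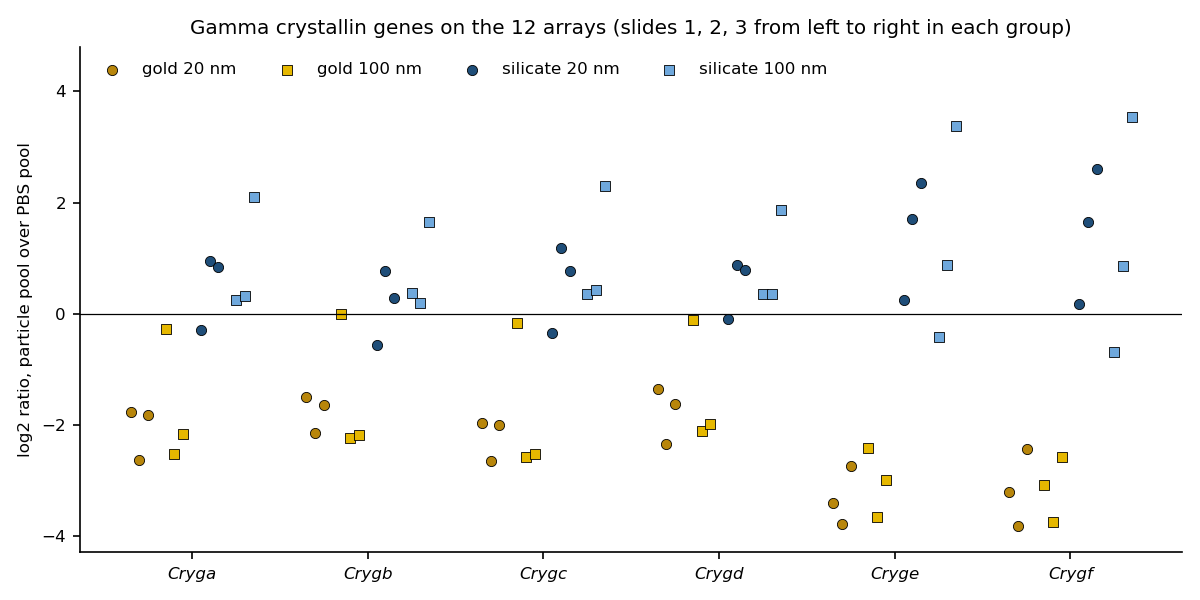
Log2 ratio of particle over PBS (y axis) for the 6 gamma crystallin genes (x axis), 1 point per array. In each colour the 3 points are slides 1, 2 and 3 from left to right. For Cryge and Crygf the gold points lie at -2.42 or lower and the silicate points at -0.70 or higher, while the gold 100 nm point of slide 1 is near 0 for the other 4 genes.

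The remaining lens genes had values nearer 0 on slides 1 and 2. Of the 17 measured lens genes outside Cryga to Crygf (18 in the list), 4 had the same lower sign on all slides, beside 19.1% of all genes. The median of the 17 was 0.11 on slide 1, -0.24 on slide 2 and -2.53 on slide 3. Crygs, a further gamma crystallin, was counted among these 17 and differed by -0.04, -0.66 and -3.505. Cryaa, the alpha crystallin chaperone of the lens, differed by -0.12, -0.19 and -3.48, and Crybb2, a beta crystallin, by 0.30, -0.05 and -2.52. Mip, the water channel of lens fibres, differed by 0.25, 1.16 and -4.02. Cryaa had Cy5 levels of 18.41 and 18.31 in the gold 100 nm tubes of slides 1 and 2, where Cryge was at 8.88 and 9.16. In the silicate 100 nm tubes of the same slides, Cryaa was at 18.13 and 17.58 and Cryge at 10.82 and 13.69. The part of the amount of lens RNA in the gamma crystallin differences was not tested.

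Hdc, which encodes the enzyme that makes histamine, was higher with gold on every slide. Its log2 ratios were -0.19, 0.05 and 0.21 with gold and -1.65, -0.85 and -0.23 with silicate, with no overlap. The gold tubes were near PBS and the silicate tubes below it. The slide differences were 0.90, 0.69 and 1.32, a mean of 0.97 ± 0.32 (SD, n = 3). Csrp3, a LIM protein of striated muscle chosen after its values were seen, had the same form, with -0.31 to 0.45 with gold and -1.62 to -0.43 with silicate, and slide differences of 1.14, 0.50 and 1.56.

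Acadm, the medium-chain acyl-CoA dehydrogenase of fatty acid oxidation, had slide differences of 0.41, 0.46 and 0.65, and its gold arrays (-0.12 to 0.21) lay above its silicate arrays (-0.71 to -0.21). Cpt1a, which carries fatty acids into mitochondria and was chosen after its values were seen, differed by 0.25, 0.34 and 0.47, also without overlap. Both were near PBS with gold and below it with silicate. Ell3, an elongation factor of RNA polymerase, was on the other hand above PBS on all gold arrays (0.13 to 0.41) and below it on all silicate arrays (-0.45 to -0.12), with slide differences of 0.54, 0.66 and 0.58. Gucy2d, a membrane guanylate cyclase, was above PBS on all 12 arrays, at 1.28 to 1.55 with gold and 0.32 to 1.19 with silicate, and its slide differences were 0.59, 0.64 and 0.72. With PBS always in Cy3, the part of a dye effect in these ratios was not tested.

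The elongation factor gene Tcea3 had the smallest p of the genes higher with gold, at slide differences of 0.85, 0.76 and 0.72, a mean of 0.78 ± 0.07 (SD, n = 3). Its materials overlapped through the gold 100 nm tube of slide 3, at -0.56. Ip6k3, an inositol phosphate kinase, and Gsc2, a homeobox gene, had mean differences of 0.99 and 1.01, and their lowest silicate values were on slide 3. Diaph3, a formin that builds actin filaments, differed by 0.68 on average and its arrays did not overlap. Tmem116, a transmembrane protein, differed by 0.49, also without overlap. Rnf43, a ubiquitin ligase that removes Wnt receptors, Pls1, an actin-bundling plastin, and Igfbp1, which binds insulin-like growth factors, differed by 0.67, 0.50 and 0.52, with overlap. These 12 genes were the ones with the smallest p among those higher with gold on all slides, and their differences ran from 0.49 to 1.01.

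Keratins and other epithelial genes were in the corresponding set of 12 that was lower with gold on all slides. Krt17, a keratin of basal and injured epithelium, was at -0.52, -0.17 and 0.07 on the gold arrays and at 0.04, 0.88 and 2.57 on the silicate arrays. Its slide differences were -1.28, -1.22 and -1.06, a mean of -1.19 ± 0.11 (SD, n = 3), and its probe was well above background on 2 gold and 5 silicate arrays. Krt15, a keratin of basal epithelial cells, differed by -1.06, -1.65 and -1.55, and Krt14, another keratin of the basal layer chosen after its values were seen, by -1.49, -1.56 and -0.80. Sprr1a, a precursor of the cornified envelope, differed by -1.06, -0.74 and -0.67.

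The highest silicate values of these keratins came from few tubes. Krt15 reached 3.87 and 3.23 in the silicate 20 nm tubes of slides 1 and 2, against 1.18 and 1.18 in the 100 nm tubes, and the gold tubes of these slides were at 1.70, 1.24, 0.32 and 0.79. On slide 1 the PBS channel of Krt15 was itself high on the silicate 20 nm array, at a level of 10.77 against 6.83 to 6.86 on the other 3 arrays, while its Cy5 level was 14.64 on that array and 8.03 to 8.53 on the others. The same 2 silicate 20 nm tubes were the highest for Krt14, at 2.83 and 2.36, for the annexin gene Anxa8, at 3.93 and 2.28, and for Pdzk1ip1, at 2.68 and 1.83. Tspan1, a tetraspanin of epithelia, followed at 1.85 and 1.32.

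Emp1, an epithelial membrane protein, had the largest mean difference among the 12 genes of this direction, at -1.96 ± 0.31 (SD, n = 3), with gold from -3.86 to 0.95 and silicate from -2.35 to 3.34. Its gold and silicate arrays overlapped widely, and its ratio moved with the slide. Gpha2, a glycoprotein hormone subunit, differed by -1.42, Pi16, a peptidase inhibitor, by -1.41, and Urah, an enzyme of urate breakdown, by -1.23. Ifit1bl1, of the interferon-induced Ifit family, differed by -0.81. In the surface epithelium list, 5 of 11 measured genes were lower with gold on all slides and 1 was higher, beside 19.1% and 16% of all genes. The list's medians were -0.87, -0.12 and -0.76 on slides 1, 2 and 3, and 0 passed within any slide. Over all genes, 0 and 4 passed on slides 1 and 2, and 19.2% were called lower and 10.2% higher on slide 3. Krt12, the keratin of corneal epithelium, ran the other way on slides 1 and 3, at 0.27, -0.84 and 0.49.

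Dnaic2, an intermediate chain of the dynein arms of cilia, spread little among the arrays of a material. It was below PBS on all gold arrays, from -0.52 to -0.30, and at 0.04 to 0.38 on the silicate arrays, with slide differences of -0.76, -0.64 and -0.51. Sik2, a salt-inducible kinase, and Dip2b, both chosen after their values were seen, likewise did not overlap. Sik2 was near PBS with gold (-0.07 to 0.15) and above it with silicate (0.23 to 0.79), and it was called within slide 2 at a difference of -0.81 (adjusted p = 0.023). A second probe of Sik2 differed by -0.10, -0.45 and 0.12 on the 3 slides, with a mean of -0.14 against -0.52. Dip2b differed by -0.50, -0.52 and -0.30.

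**Figure D2:**
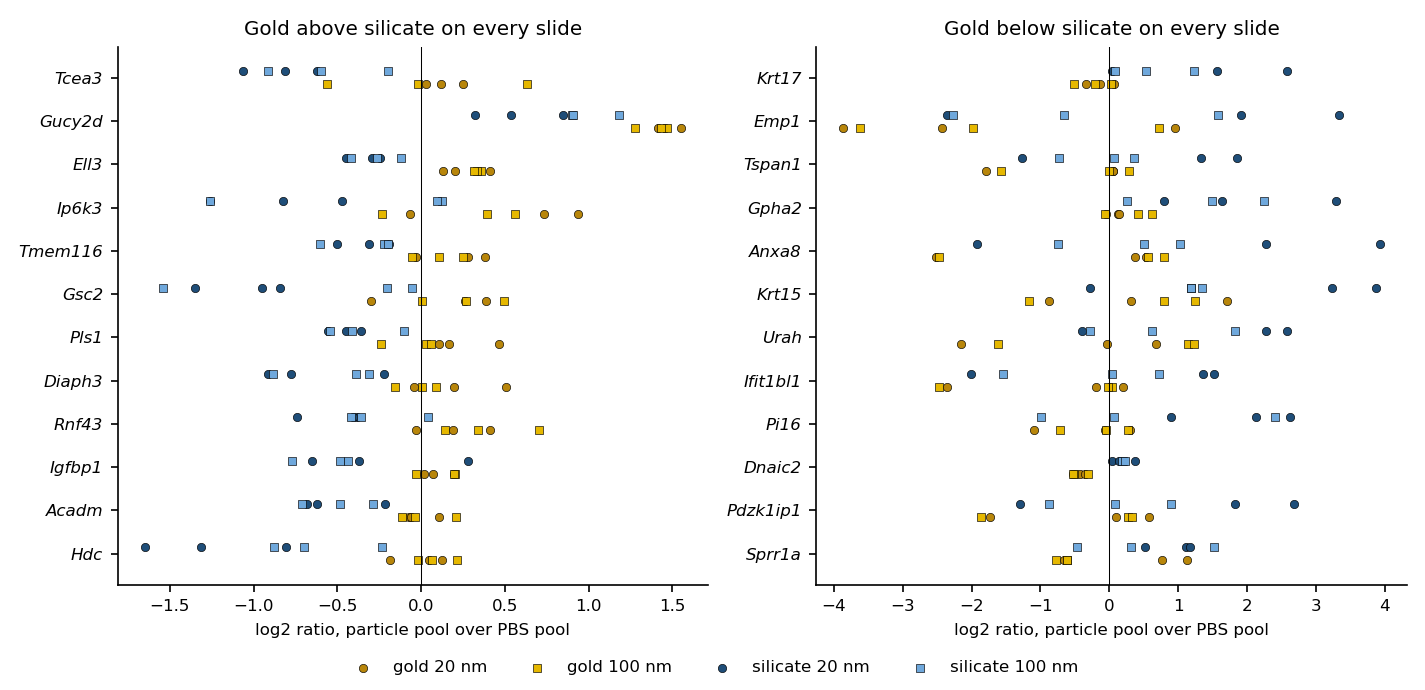
Log2 ratio of particle over PBS (x axis) on the 12 arrays for the 12 genes with the smallest p in each direction among those with 1 sign on all 3 slides (rows). In each row the upper points are silicate and the lower points gold. Gucy2d, Ell3, Tmem116, Diaph3, Acadm, Hdc and Dnaic2 show no overlap of gold and silicate, while genes such as Emp1 and Krt15 spread more within a material than between the materials.

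With single arrays and the slide as a random block, 10 genes were higher with gold (0.0431%) and 5 lower (0.0216%), at an estimated correlation within slides of 0.494. The 10 were Hdc, Ell3, Tmem116, Ect2, Rnf43, Acadm, Gucy2d, Hpcal1, Hook3 and Csrp3, with adjusted p from 0.0178 for Hdc to 0.0493 for Csrp3. Lower were Dnaic2, Crygf, Cryge, Dip2b and a transcript without a symbol. The same arrays gave 0 calls with the slide as a fixed block or with no block. In the random-block fit single tubes are the units, and it has no term for a material difference that varies between slides. The spread of the slide differences holds both that variation and the spread between tubes. Of the genes called with the random block, Ect2, which drives the division of cells, differed by 0.39, 0.58 and 0.71. Hook3, a microtubule adaptor, differed by 0.37, 0.31 and 0.62, and Hpcal1, a neuronal calcium sensor, by 0.30, 0.38 and 0.38.

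Immediate early genes, which cells switch on within minutes of a stimulus, were mostly lower with gold. The list was drawn up after the values were seen. Of its 11 measured genes (15 in the list, 4 too dim), 9 were lower with gold on all slides, beside 19.1% of all genes, and the medians were -0.36, -0.27 and -0.97 on slides 1, 2 and 3. Egr1, a zinc finger factor, was at -2.65, -0.17 and 0.05 with gold and at -1.39, 1.65 and 3.37 with silicate, and it differed by -1.49, -1.82 and -2.88. The gold tubes of slides 2 and 3 were near PBS, while the silicate tubes were above it. On slide 1 all 4 tubes were below PBS, whose Cy3 level was 12.16 to 12.30, against 9.34 to 9.76 on the other slides.

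Fos, a subunit of AP-1, differed by -1.01, -1.13 and -2.04, and Nr4a1, an orphan nuclear receptor, by -0.50, -0.94 and -0.86. Dusp1, a phosphatase of MAP kinases, differed by -0.36, -0.52 and -0.97. The activity-dependent neuronal gene Npas4 differed by -0.18, -0.27 and -0.21, within the spread of its silicate arrays (0.17 to 0.63). Within slide 3, 8 of the 11 were called lower, beside 19.2% of all genes, Egr1 (limma, adjusted p = 0.000197) and Fos (adjusted p = 3.13e-05) among them. Within slides 1 and 2, 0 were called, beside 0 and 4 (0.0172%) of all genes. The material difference of Arc rested on the silicate 20 nm tube of slide 3, at 1.83 against -0.09 to 0.55 in the other silicate tubes.

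The 3 slides held different comparisons of gold with silicate. The SD of the differences across genes was 0.197 on slide 1, 0.197 on slide 2 and 0.701 on slide 3, and 130, 98 and 1884 genes differed by more than 2-fold. Of the 1884 on slide 3, 1817 were lower with gold. Across genes, which are not independent replicates, the differences of slide 1 correlated with those of slide 3 at 0.523, those of slide 2 with slide 3 at -0.0982 and those of slides 1 and 2 at 0.253. The difference of gold and silicate depended on the slide for 3003 genes (12.9%) by limma's F test.

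Within slide 1, 0 genes were called (0%), and 1551 had an unadjusted p under 0.05 (6.69%). Without the silicate 100 nm array of slide 1, 224 genes passed there, 5 of them higher with gold, and without the gold 20 nm array 5 passed. Within slide 2, 0 were called higher and 4 lower with gold (0.0172%), namely Cryge, Crygf, Sik2 and S100a9. At an unadjusted p under 0.05 it was 1049 genes (4.52%). By the same limma fit 0 passed there without either gold array of slide 2, 2 without the silicate 20 nm array and 5 without the silicate 100 nm array. Within slide 3, gold was called higher for 2373 genes (10.2%) and lower for 4457 (19.2%), and 9340 genes had an unadjusted p under 0.05 (40.3%). These contrasts set 2 tubes against 2 and borrow the spread of all tubes.

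**Figure D3:**
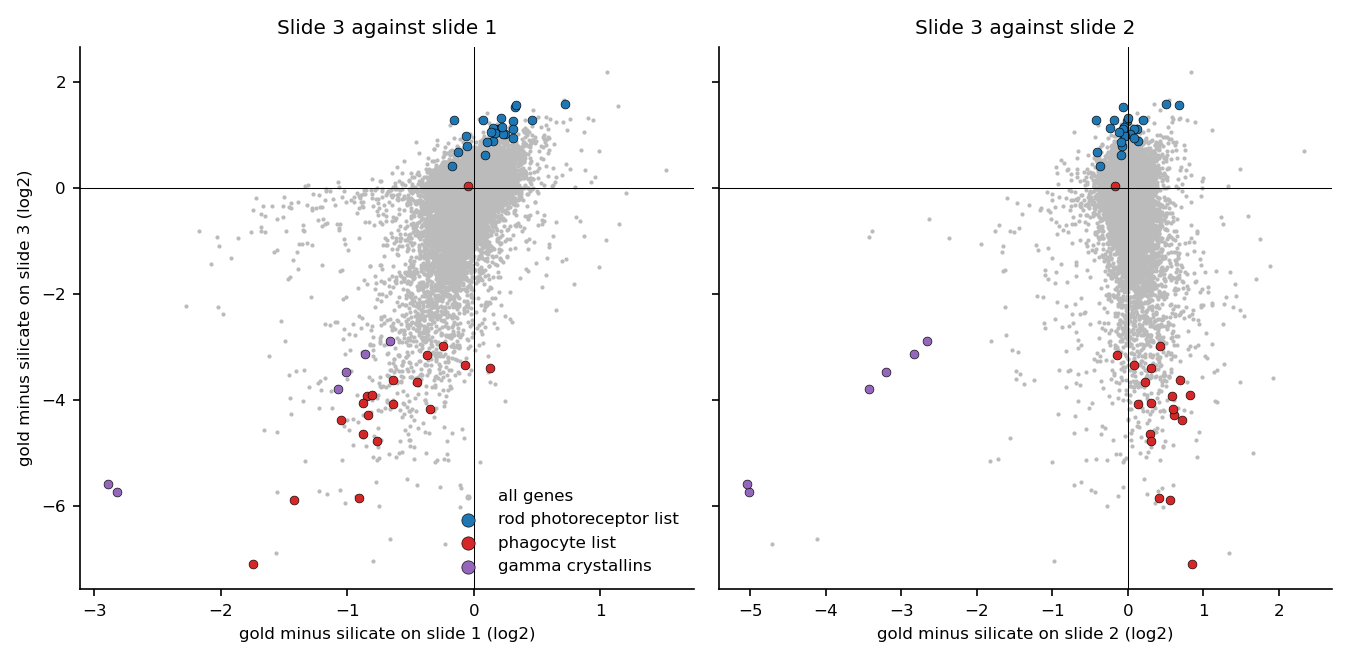
Gold minus silicate (log2) on slide 3 (y axis) against slide 1 (left) and slide 2 (right), 1 point per gene. All phagocyte genes but Itgam are low on slide 3 and most lie above 0 on slide 2, rod genes are above 0 on slide 3 and around 0 on slide 2, and the gamma crystallins are below 0 on all 3 slides.

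Slide 3 separated the materials by the genes of phagocytes. Of the 19 measured genes of the macrophage and activated microglia list (22 in the list), 18 were called lower with gold on slide 3, beside 19.2% of all genes, and the median was -4.06. Ms4a7, a membrane protein of macrophages, had log2 ratios of -0.34 and -0.31 with gold and of 6.51 and 7.03 with silicate on slide 3. On slide 1 it was at -4.80 and -4.85 with gold and at -2.73 and -3.43 with silicate. On slide 2 the order was turned, with 1.41 and 1.14 with gold and 0.89 and -0.05 with silicate. The difference was -1.75, 0.86 and -7.10 on the 3 slides, and only that of slide 3 was called (adjusted p = 1.26e-06).

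The PBS channel of Ms4a7 was at a Cy3 level of 13.28 to 13.40 on slide 1, at 7.06 to 7.26 on slide 2 and at 7.99 to 8.06 on slide 3. The level was thus high in the PBS RNA of slide 1 and in both silicate tubes on slide 3 (14.49 and 15.07). In the 6 gold tubes it was 7.72 to 8.61, and in the silicate tubes of slides 1 and 2 it was 7.00 to 10.55. Ctss, a cathepsin of phagocytes, differed by -1.42, 0.56 and -5.88, and Csf1r, the receptor they need to survive, by -0.25, 0.43 and -2.96.

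Among the genes whose difference on slide 3 fell furthest below that of slides 1 and 2, all 6 are genes known from myeloid cells or platelets. Lyz1, a lysozyme, differed by -1.56, 1.33 and -6.88, Arg1, the arginase of alternatively activated macrophages, by -0.11, 0.47 and -6.01, and the lectin gene Clec4d by -0.79, -0.97 and -7.03. The chemokine genes Ccl6 and Pf4 differed by -5.59 and -5.65 on slide 3 and by -0.11 and -0.10 on slide 1. Arg1 was not well above background on 1 of the 6 gold arrays and Clec4d not on 2 of them.

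Homeostatic microglia genes had a median nearer 0. On slide 3, 7 of 10 were called lower with gold, beside 19.2% of all genes, with a median of -1.59. Cx3cr1, the fractalkine receptor of microglia, differed by -0.50, 0.40 and -2.59, and Siglech by -0.18, -0.27 and 0.20 at its brightest probe. A further probe of Siglech had the opposite signs, at 0.11, 0.42 and -0.77. The lymphocyte list, of which 10 of 18 genes were measured, had 5 called lower, beside the same 19.2%, and a median of -0.54.

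A single neutrophil gene was called lower with gold on slide 2 as well as on slide 3. It was S100a9, a calcium-binding alarmin, at 0.10 and -0.08 in the gold tubes of slide 2 and at 5.25 and 4.19 in its silicate tubes (adjusted p = 0.0251). On slide 3 it was at -1.58 and -1.25 with gold and at 4.50 and 6.09 with silicate (adjusted p = 1.34e-05). On slide 1 all 4 tubes were far below PBS, from -6.17 to -5.55, and the difference was -0.23. S100a8, its partner, differed by -0.66, -4.11 and -6.62, and it was well above background in 3 of the 6 gold tubes and in all silicate tubes.

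The PBS level of S100a8 was 15.62 to 15.79 on slide 1 and 6.41 to 7.13 on slides 2 and 3. Of the 13 measured neutrophil genes (16 in the list), 8 were lower with gold on all slides, beside 19.1% of all genes, and their median difference was -1.17, or -2.78 with the processed signals. It ran from -1.62 without slide 1 to -0.35 without slide 3. Retnlg, a resistin-like gene of granulocytes, differed by -0.12, -0.65 and -3.02, and Il1r2, the decoy receptor for interleukin 1, by -0.43, -0.81 and -3.06. The granule enzymes Mpo and Elane, made in immature cells, both differed by 0.00 on slide 3. Lcn2, shared by neutrophils and injured Muller glia, differed by -0.29, -0.41 and -3.11. The PBS channel of Lcn2 on slide 3 read 9.88 and 9.94 on the gold arrays but 14.56 and 13.59 on the silicate arrays, which makes its ratio difference smaller than its Cy5 difference. A PBS channel that differed by more than 1 (log2) between the materials was seen for 21, 1 and 55 genes on slides 1, 2 and 3. Across genes, the Cy5 difference correlated with the ratio difference at 0.874, 0.922 and 0.98 on these slides. With the ratios, 9 of the 13 neutrophil genes were called lower on slide 3, beside 19.2% of all genes, with a median of -2.07. With the Cy5 level alone, which leaves the PBS channel out, it was 8 of the 13, with a median of -1.99. That setting called 3478 genes lower on the slide. Csf3r, the brightest gene of the list, differed by -0.10, -0.36 and 0.35 and was not called.

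**Figure D4:**
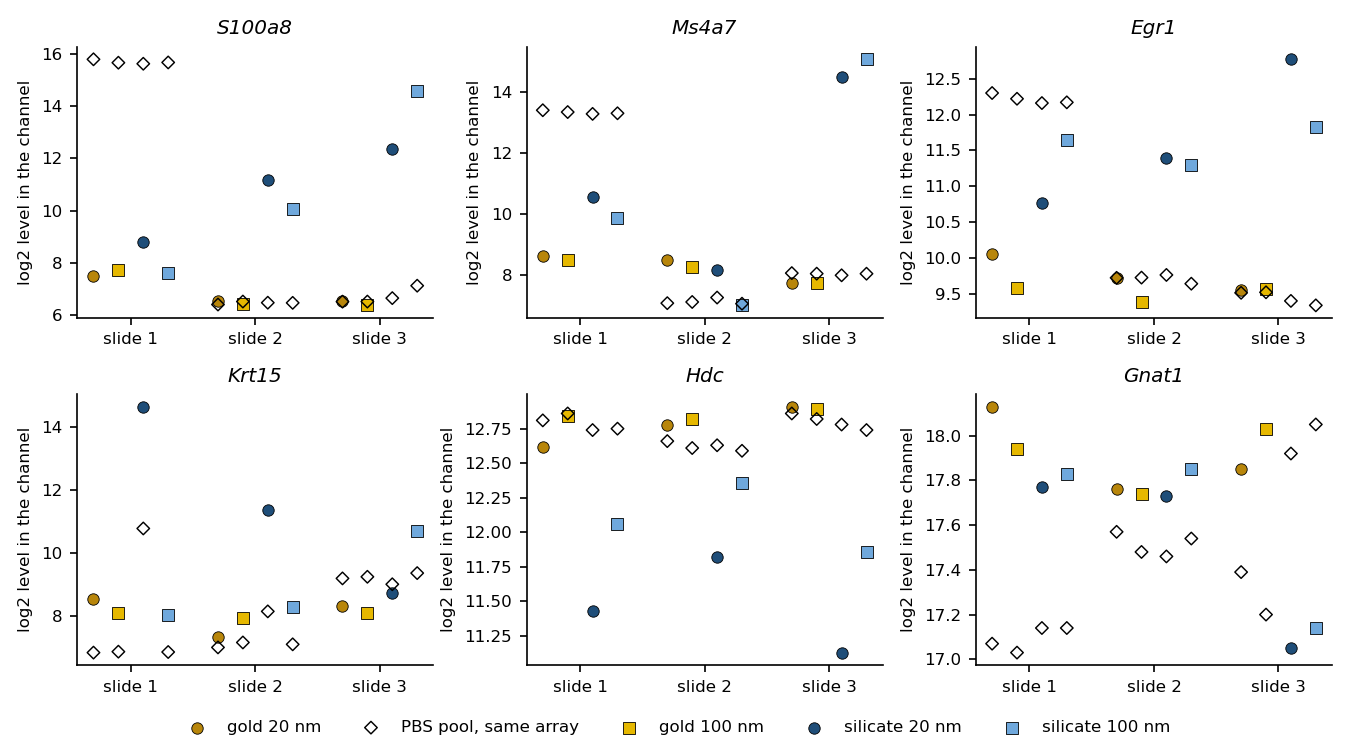
Normalized log2 level (y axis) of 6 genes in the particle tube (Cy5, filled symbols) and in the PBS RNA of the same array (Cy3, open diamonds), by slide (x axis). S100a8, Ms4a7 and Egr1 are high in the PBS RNA of slide 1 and in the silicate tubes of slide 3, Hdc is lower in every silicate tube than in every gold tube, and among the particle tubes Gnat1 is lowest in the silicate tubes of slide 3.

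Antigen presentation and interferon genes on slide 3 went with the phagocyte genes. All 8 MHC class II genes were called lower with gold there, with a median of -3.73, and all 10 MHC class I genes, with a median of -3.27. The same held for all 21 measured interferon genes (23 in the list), with a median of -2.56. Over all genes, 19.2% were called lower on that slide. The invariant chain gene Cd74 differed by -0.79, -0.03 and -4.67, the class I light chain gene B2m by -0.75, 0.75 and -4.18, and Irf1, an interferon-regulated factor, by -0.77, 0.25 and -3.95. On slide 2 the medians of these lists were 0.06, 0.34 and 0.41, that is, at or above 0, and on slide 1 they were -0.45, -0.58 and -0.61. With the Cy5 level alone the medians on slide 3 were -4.87, -3.56 and -2.51, and all members were again called lower. That setting called 3478 genes lower on the slide.

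Complement, chemokine and cytokine genes were called lower with gold on slide 3 for 10 of 11, 12 of 13 and 8 of 10 measured members, beside 19.2% of all genes. Their medians there were -2.93, -3.28 and -2.30, and -2.90, -4.34 and -2.25 with the Cy5 level alone. C4b, a component of the classical pathway, differed by -0.82, 1.12 and -2.93, and Ccl5, which attracts T cells and monocytes, by -1.22, 0.40 and -5.70. Cd59a, the brightest complement gene, was higher with gold on all slides, at 0.25, 0.45 and 0.39 (limma, adjusted p = 0.105 on slide 3). Saa3, an acute phase protein, was lower with gold on all slides, by -0.31, -1.01 and -5.16. The lysosome list had 18 of 18 called lower on slide 3, beside the same 19.2%, with a median of -1.995. Ctsd, a lysosomal protease, differed by -0.74, 0.25 and -2.88.

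Glial genes divided. Of 16 measured gliosis genes, 15 were called lower with gold on slide 3, beside 19.2% of all genes, with a median of -2.54. Vim, the intermediate filament of reactive Muller glia, differed by -0.34, 0.63 and -2.41, and Cp, ceruloplasmin, by -0.78, 0.57 and -3.21. The list of resting Muller glia had 3 of 13 called higher and 7 called lower, beside 10.2% and 19.2% of all genes, with a median of -0.49. With the processed signals 4 were called higher and 4 lower. Dkk3, an inhibitor of Wnt signalling and a member of that list, differed by -0.08, 0.17 and -0.52. Its call on slide 3 was lost with the processed signals (-0.47, adjusted p = 0.0558) and with the Cy5 level alone (-0.42, adjusted p = 0.0634).

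Rod genes were higher with gold on slide 3, all 25 of them, beside 10.2% of all genes, with a median of 1.11 (lowest 0.43, highest 1.59). Their medians on slides 1 and 2 were 0.19 and -0.05. Gnat1 was at 0.46 and 0.83 in the gold tubes of slide 3 and at -0.87 and -0.91 in its silicate tubes (difference 1.53, adjusted p = 1.79e-05). On slide 1 both gold tubes were above both silicate tubes (difference 0.32), and on slide 2 both were slightly below both silicate tubes (difference -0.07). Gngt1, the transducin gamma subunit of rods, differed by 0.21, 0.00 and 1.32, and Abca4, the retinoid transporter of outer segments, by 0.12, -0.05 and 1.24. Pdc differed by -0.15, -0.43 and 1.29, and Ttll11, a tubulin-modifying enzyme, by 0.33, 0.34 and 1.59. These 5 were among the 6 genes with the largest rise of slide 3 over slides 1 and 2. The gold tubes of slide 3 were within 0.83 of PBS for these 5 and the silicate tubes were below it.

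The other neurons had medians nearer 0. Cone genes were called higher for 6 of 12 on slide 3 (median 0.49), bipolar genes for 5 of 15 (0.35), amacrine and horizontal genes for 3 of 16 (0.02) and ganglion genes for 3 of 16 (0.15), with 0 lower in each list. Of all genes, 10.2% were called higher and 19.2% lower. The shares called higher in the last 2 lists were the nearest to that of all genes. With median centring, 1 bipolar gene was called lower. With the processed signals, which called 7456 genes higher in place of 2373, the counts were 7 cone, 8 bipolar, 6 amacrine and horizontal and 11 ganglion genes. Gnat2, the cone transducin, differed by 0.80 on slide 3, Gng13 of ON bipolar cells by 0.70 and Nefl, a neurofilament of ganglion cells, by 0.46. On slides 1 and 2 these 3 genes were between -0.14 and 0.10. Slc32a1, the vesicular GABA transporter of amacrine cells, was lower with gold on all slides (-0.34, -0.22 and -0.10), and 7 of the 16 amacrine and horizontal genes had that sign throughout, beside 19.1% of all genes.

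The split of calls on slide 3 depended on the scaling. With loess, 34.7% of the called genes were higher with gold, with median centring 37%, with the Cy5 level alone 58% and with the processed signals 69.7%. The processed signals moved the median of all genes on slide 3 to 0.23 and the Cy5 level alone to 0.11, against 0 with loess. Relative to that median, the rod list was higher and the phagocyte, MHC, interferon, gliosis and lysosome lists were lower with gold on slide 3 under all 4 scalings, and 24 or 25 of the 25 rod genes were called under each.

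Metal handling, oxidative stress, p53 and proliferation genes were mostly called lower with gold on slide 3. On slides 1 and 2, 0 members of these or the other stress lists were called, beside 0 and 4 (0.0172%) of all genes. All counts here are of called genes and stand beside 19.2% of all genes called lower and 10.2% called higher on slide 3. Metal handling had 11 of 14 lower and 1 higher, with a median of -1.23. Mt1, a metallothionein that binds metal ions, differed by -0.23, 0.48 and -1.71, and the ferritin chains Fth1 and Ftl1 by -2.35 and -2.41 on slide 3. Oxidative stress had 10 of 19 lower with a median of -0.99, whereas the abundant enzymes Gpx4 and Sod1 were at 0.10 and 0.07. Endoplasmic reticulum stress had 4 of 12 lower, or 3 under each other scaling. Heat shock had 3 of 9 lower and 1 higher, its higher share being near that of all genes, and 2 lower and 2 higher with the processed signals. Hsp90aa1, a cytosolic chaperone, was the heat shock gene that was called higher, at 0.77, after -0.08 and -0.19 on slides 1 and 2. The p53 and apoptosis list had 11 of 14 lower and the proliferation list 9 of 14 measured.

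Vessel and matrix genes followed the same slide. The vascular list had 10 of 15 called lower on slide 3 and the matrix list 12 of 19 called lower and 1 called higher. These counts stand beside 19.2% of all genes called lower and 10.2% called higher, and the medians were -1.02 and -2.21. The matrix gene called higher was Vtn, vitronectin, made by photoreceptors, at 0.30, 0.14 and 1.12. Sparc, a matrix glycoprotein, differed by -0.54, 0.39 and -2.21. The VEGF and hypoxia list had 7 of 19 called lower and 5 called higher, and the 5 became 2 with median centring and with the Cy5 level alone. Kdr, the main VEGF receptor, differed by -1.07 at its brightest probe, while the mean over the slides was of the other sign at a further probe. The glycolytic genes Ldha and Pgk1 of that list were higher with gold on slide 3, at 0.53 and 0.41, and lower or near 0 on slides 1 and 2. The call of Pgk1 was lost with the Cy5 level alone (adjusted p = 0.0624) and with median centring (adjusted p = 0.0851).

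Pigment epithelium and blood genes varied in sign between slides, and muscle genes had medians below 0 on all 3. Pigment epithelium genes had medians of 0.03, 0.77 and -0.58, and Dct, an enzyme of melanin synthesis, differed by 0.12, 1.70 and -1.70. Haemoglobin Hba-a2 differed by 0.34, -1.07 and -0.07. Smooth muscle actin Acta2 differed by 0.25, 1.54 and -2.41. The muscle list had medians of -0.06, -0.44 and -1.88, with 8 of its 14 measured genes lower with gold on all slides and 1 higher, beside 19.1% and 16% of all genes, and 9 were called lower on slide 3, beside 19.2%. With the processed signals its median on slide 1 was 0.26. The skeletal muscle genes Tnni2, a fast troponin, and Myh1, a fast myosin heavy chain, both chosen after their values were seen, differed by -0.26, -1.24 and -3.61 and by -0.53, -0.96 and -1.79. For Dct, Hba-a2 and Acta2 the SD over the 3 slides was larger than the mean.

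**Figure D5:**
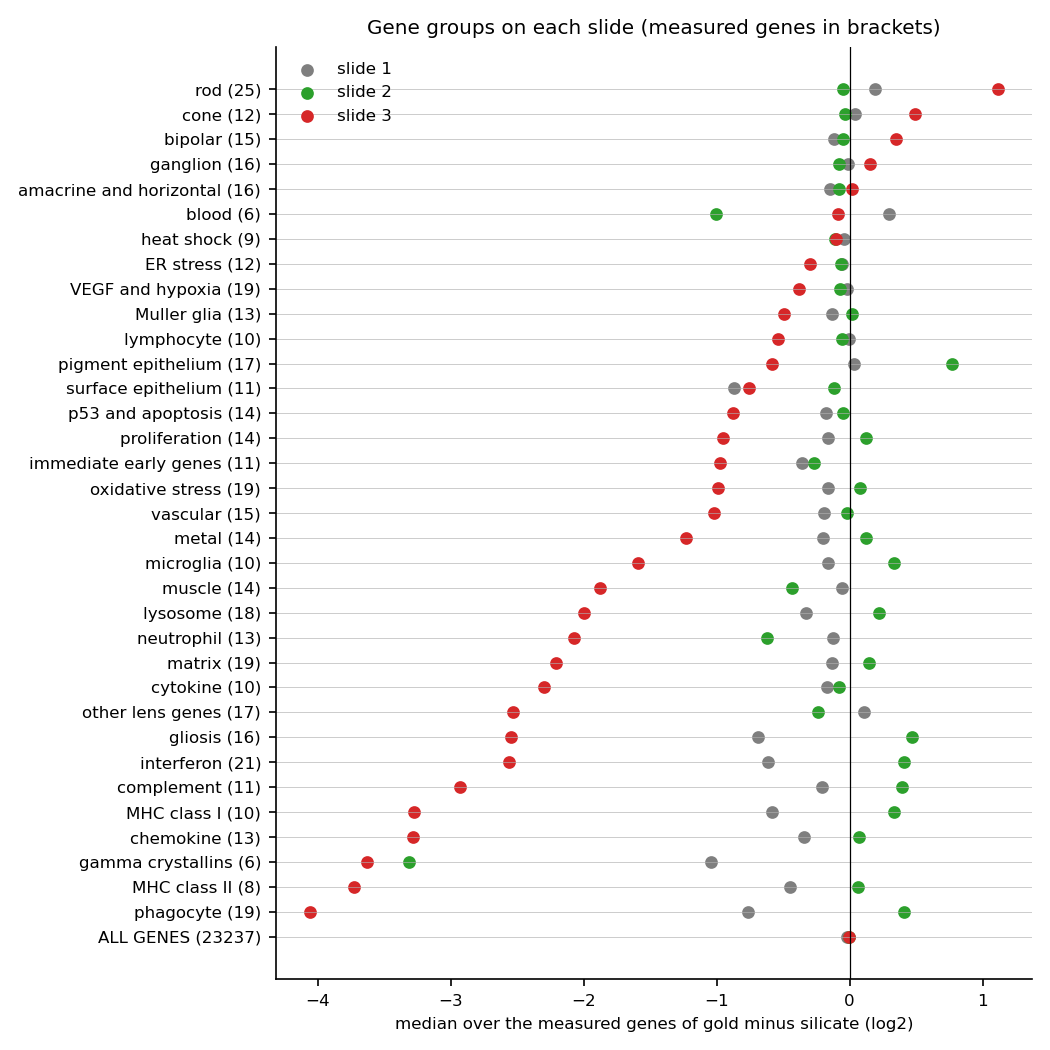
Median of gold minus silicate (log2, x axis) over the measured genes of each list (rows, number measured in brackets) on slides 1, 2 and 3. The slide 3 points run from -4.06 for phagocyte genes to 1.11 for rod genes, while most points of slides 1 and 2 lie within 1 of 0. The median of the gamma crystallins Cryga to Crygf is below -1 on every slide.

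No gene passed the test of whether the gap between gold and silicate depended on particle size: limma called 0 of 23231 (0%), and 962 had an unadjusted p under 0.05 (4.14%). Cryge differed by -4.75 between the 20 nm materials and by -4.298 between the 100 nm materials, and Egr1 by -1.94 and -2.18. Hdc had a larger gap at 20 nm (1.25) than at 100 nm (0.69), and the keratin gene Krt14 too (-1.92 and -0.64). The surface epithelium list had a median of -1.15 at 20 nm and of -0.02 at 100 nm, and the phagocyte list -1.27 and -1.62. A missed threshold with 3 slide values does not show that the sizes act alike.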

How the data were processed

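RNA of mouse retinas was measured on 12 two-colour Agilent arrays of 44397 spots. The deposited scanner files hold intensities of both channels, background medians and processed signals, which per the file headers came from version 11.0.1.1 of Agilent Feature Extraction with mm9 annotation; version 9.3.2.1 stands in the submitters' processing notes. They also hold a log10 ratio of Cy5 over Cy3, as deposited. A value table of log2 ratios deposited by the authors had slopes of 3.3 to 3.32 and correlations of 0.941 to 0.995 against that log10 ratio, with column medians of 0.0163 to 0.114, so its scale and direction match and only its centring is unknown. Per the labels, Cy3 held PBS RNA and Cy5 particle RNA, with no dye swap.

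Median signals were corrected with normexp (offset 50), control spots (1377) being left out afterwards, normalized by loess within arrays, and averaged per probe, in R 4.3.3 with limma 3.58.1. Of 39429 probes, 28460 passed the filter (well above background, in Cy3 or Cy5, on the 3 arrays of at least 1 group). The brightest probe stood for each of 23237 genes, 15592 of them with a symbol through the RefSeq table of GRCm38.p6. The number of arrays limits the precision.

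limma's lmFit and eBayes tested the 3 slide differences, the 6 means of material and slide (F test and contrasts within slides, 2 pools against 2), and the difference between sizes, two-sided, with Benjamini-Hochberg adjustment at 0.05 over all genes. All p-values and adjusted p-values are limma's. For 38 genes with a missing array, the remaining array of that material and slide gave the slide difference, and they were left out of fits to single arrays. Slides are the batch, given by the replicate number in the labels and the file headers. The deviations of arrays of 1 slide from their group means correlated at 0.889 to 0.934, 0.0811 to 0.831 and 0.554 to 0.919 on slides 1, 2 and 3. The code was tested on simulated data. Alternatives were other background and dye corrections, filters, probe rules, blocks, the authors' value table, single sizes and left-out slides or arrays.

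Genes named were the 12 of smallest p in each direction among those of 1 sign on all slides, the 6 largest rises and falls of slide 3 against slides 1 and 2 among genes whose difference depended on the slide, the 3 brightest of each of 32 lists, and genes stated as chosen after their values were seen. The comparison, its members and the lists were chosen with earlier results of these data known. S100a8, S100a9, Ect2, Hook3, Hpcal1, Crybb2, Mip, Krt12, Retnlg, Il1r2 and Mpo were also named after their values were seen. Genes without a symbol are not named, and 1 gene that the rule names is not reported here.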

Additional observations from a re-analysis of the deposited data

Results flagged for a closer look

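In 6 of 196 groups of 6 arrays examined, 1 array lay apart from the others by Dixon's criterion, which chance meets in about 1 of 20 groups. The gold 100 nm array of slide 1 was the highest of the gold arrays for 3 gamma crystallins: its log2 ratio was -0.172 for Crygc (next highest -1.97), -0.282 for Cryga (next -1.78) and 0.000515 for Crygb (next -1.5). The median of the 6 gamma crystallins was -0.227 on that array and -1.87 on the next. For Arc, an activity-regulated neuronal gene, the silicate 20 nm array of slide 3 was highest among the silicate arrays, at 1.83 against 0.549 on the next. For the surface epithelium list the silicate 20 nm array of slide 1 had a median of 2.83, and the next highest silicate array had 0.953. The difference between the materials depended on the slide for 3003 genes, and for 0 genes when slide 3 was left out.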

How the results depend on the processing

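The count of genes called over the 3 slides was 0 under every alternative run except the random block, which called 15. With the slide as a fixed replicate block and single arrays as units it was 0, and with no replicate block 0 as well. The count of genes whose difference depended on the slide ran from 0 to 3646 when a slide was left out: 0 without slide 3 and 1664 without slide 2. Within slide 1, leaving out 1 array gave 0 to 224 calls, within slide 2 it gave 0 to 5, and within slide 3 4634 to 5465. The processed signals called 8 genes within slide 2 and 10698 within slide 3, and the Cy5 level alone called 2 within slide 2. The test of particle size called 0 genes under each alternative run.

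Few single genes changed sign. Fosb over the slides ran from -0.3838 without slide 2 to 0.06595 without slide 3. On slide 3, the processed signals turned Slc6a9 (0.02601), Mcm7 (0.1066) and Jchain (0.01312), median centring turned Hspa8 (-0.06516), Atf4 (-0.01217) and Mcm7 (0.007806), and the Cy5 level alone turned Hspa8 (-0.02935), Gngt2 (-0.007179) and Mcm7 (0.05624). None of the 6 genes turned on slide 3 passed the test there. The cause was not tested. Of the other values of single genes over the slides, 748 kept their sign and side of the threshold and 14 passed it under the random block only. On slide 3, 294 values kept both, 7 passed only under an alternative and 14 lost their call, among them Eno1, Mdm2, Sesn2 and Il18 under 1 or more settings. The medians of lists moved in 5 of 175 cases, 4 of them for heat shock genes; the neutrophil median was -2.778 with the processed signals. The settings that leave out an array, take the Cy5 level alone or centre by the median within a slide were chosen after seeing the data. The number of slides limits what the paired test can call, and probes near background, such as Krt17 in gold tubes, give compressed differences.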

Other observations

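In the PBS channel of slide 3, some genes read higher on the silicate arrays than on the gold arrays although the same kind of RNA was hybridised. Saa3 read 6.03 and 6.36 on the gold arrays and 10.81 and 11.78 on the silicate arrays, and Pf4 read 8.22, 8.23, 8.60 and 10.61. The class II gene H2-Eb1 read 9.73 and 9.72 against 12.42 and 11.55. All 3 were high in the Cy5 channel of the silicate arrays of that slide. On slide 1 the keratin gene Krt5 read 10.99 in the PBS channel of the silicate 20 nm array and 7.65 to 7.71 on the other 3. The cause was not tested.

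Further probes of a gene did not always give the same size. Itgam, an integrin of myeloid cells, differed by 0.05 on slide 3 at its brightest probe, against -2.56 and -0.50 at the others. Anxa8 had a mean difference of -1.30 at its brightest probe and of -0.41 at a second one.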
